A study of Mus musculus with 4 samples.

Results

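LMO2 peaks around Notch1 were examined in pro-B(+) cells, an Ebf1-deficient mouse line. They were defined by position alone, as every listed peak that started within a fixed 210 kb interval of mouse chromosome 2 (mm10, GRCm38), which runs from within Inpp5e, beyond the end of Notch1, to within Gm39772, beyond its start. This rule took 3 of the 1585 listed peaks, whatever gene the list assigned them to. LMO2 was the protein immunoprecipitated in 2 LMO2_ChIP samples (replicates 1 and 2), and 2 input samples of unprecipitated chromatin, 1% each, served as the control. All 4 samples came from the same line, of the strain C57BL6/J by its labels, which lacks Ebf1, encoding the transcription factor that commits progenitors to the B lineage, and was grown from fetal liver progenitors on OP9 stromal cells with SCF, IL-7 and Flt3L. The pro-B(+) line keeps the potential to become T cells, whereas its counterpart without that potential was not analysed here. The cells were fixed with DSG and formaldehyde, and each ChIP used a mixture of 3 anti-Lmo2 antibodies at 2 ug each. The labels do not say whether the replicates were separate cultures, while the study describes its LMO2 tracks as representative of independent experiments. In addition, no Lmo2-deficient control was used here. A peak list holds no expression values, so neither the loss of Ebf1 nor the identity of the cells could be checked, and stromal cells in the chromatin were not measured.

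Notch1 encodes a single-pass receptor on the surface of blood progenitors. When a Delta or Jagged ligand on a neighbouring cell engages it, gamma-secretase releases its intracellular domain, which joins RBPJ and a Mastermind protein on DNA and switches on target genes. In progenitors that enter the thymus this signal sets the T-cell fate. LMO2 itself does not bind DNA. It bridges TAL1 and E proteins, which read E-box words, to GATA factors through LDB1, and in blood progenitors it shares many sites with RUNX and ETS factors.

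The 3 peaks were 207 bp each, and their letters are printed because the positions of words within them are compared in the text. They are GRCm38 plus-strand sequences, so Notch1, which lies on the minus strand, reads in the opposite sense. Capitals mark the RUNX word TGTGGT, the ETS word CTTCCT and the bHLH word CAGCTG, the last of which is an E-box, on either strand. On the plus strand a minus-strand match reads ACCACA for RUNX and AGGAAG for ETS, and CAGCTG is its own reverse complement.
Peak 9.7 kb upstream of the Notch1 start, chr2:26513435-26513641: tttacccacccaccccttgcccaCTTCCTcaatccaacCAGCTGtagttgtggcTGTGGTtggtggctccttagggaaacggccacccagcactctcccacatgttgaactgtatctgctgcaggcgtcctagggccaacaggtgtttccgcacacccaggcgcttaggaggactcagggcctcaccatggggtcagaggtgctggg
Peak 74.8 kb upstream of the Notch1 start, chr2:26578563-26578769: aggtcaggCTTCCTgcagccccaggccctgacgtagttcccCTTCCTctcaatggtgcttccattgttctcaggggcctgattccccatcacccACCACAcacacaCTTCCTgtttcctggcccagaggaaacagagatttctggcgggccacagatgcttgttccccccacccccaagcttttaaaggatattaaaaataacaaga
Peak in intron 4 of Notch1, chr2:26483393-26483599: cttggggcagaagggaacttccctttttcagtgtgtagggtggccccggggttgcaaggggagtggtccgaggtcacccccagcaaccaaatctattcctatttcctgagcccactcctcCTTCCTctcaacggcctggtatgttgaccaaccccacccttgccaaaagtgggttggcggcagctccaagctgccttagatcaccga

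The peak 9.7 kb upstream was the strongest of the 3 and among the strongest of the list. Its peak score, the peak caller's normalized score, whose scaling is not stated, was 114.5. The list gives 1 score per peak for both ChIP samples, and how the samples were combined in it is not stated. Only 4 listed peaks scored higher and 1 other had the same score, so it ranked 5 of 1585, within the top 0.315%. It was the highest of the 104 peaks on chromosome 2 and ranked 3 of the 769 peaks that the list calls intergenic. Its score was 5.64 times the list median of 20.3, where the lowest score kept by the authors was 15 and the highest was 162.4.

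The peak 74.8 kb upstream had a score of 35.5 and ranked 231 of 1585, a rank it shared with 4 others. It stood in the upper part of the list, with 85.2% of the listed peaks below it, and ranked 21 on chromosome 2. On the score scale it reached 1.749 times the list median.

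The peak in intron 4 had a score of 17.7 and ranked 1072 of 1585, one of 23 peaks with that score. It fell below the list median, at 0.872 times that value, and only 31.0% of listed peaks were lower. It cleared the authors' minimum by 2.7 score units. Among the 605 peaks that the list places in introns it ranked 408.

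The 3 scores thus ran in order from the 9.7 kb upstream peak to the intron, with steps of 3.225 times between the highest and the middle and 2.006 times between the middle and the lowest. From highest to lowest the ratio was 6.469. The median of the 3 was 35.5, beside 20.3 for the whole list. With 1 value per peak in the list, no spread between replicates could be set against these steps. In a population of cells, more cells with LMO2 at a site and more LMO2 per cell cannot be told apart. The 3 peaks were chosen with the list's scores known, and the order is given as a description.

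**Figure D1:**
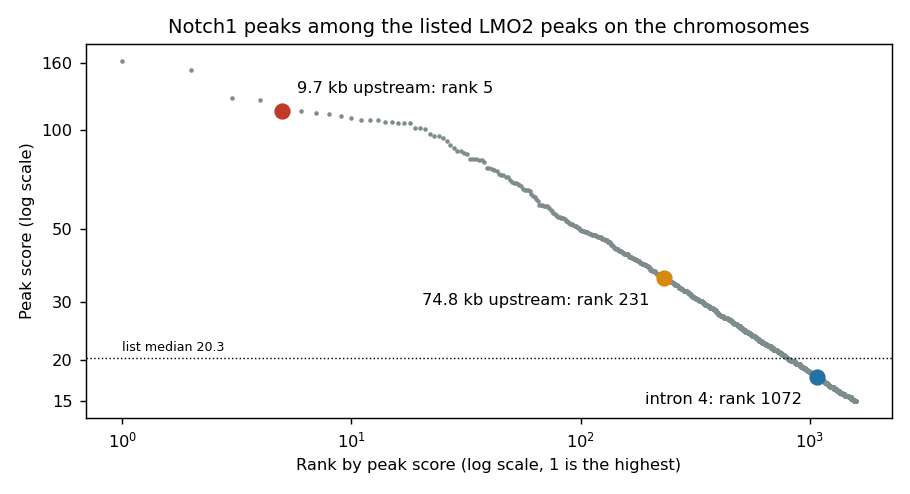
Peak score against rank for the listed LMO2 peaks on the assembled chromosomes (small points), both axes on a log scale, with the 3 peaks around Notch1 as large coloured points and the list median of 20.3 as a dotted line. The 9.7 kb upstream peak sits at rank 5, the 74.8 kb upstream peak at rank 231 and the intron 4 peak below the median at rank 1072.

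The focus ratio, the fraction of a peak's reads that the peak caller found in their proper place around its centre, ran in the same order as the score. It was 0.841 in the 9.7 kb upstream peak, 0.806 in the 74.8 kb upstream peak and 0.711 in the intron 4 peak. Over the list it ranged from 0.567 to 0.989 with a median of 0.788, so both upstream peaks were above the median and the intronic peak below it. Of the listed peaks, 83.1%, 61.8% and 10.6%, respectively, were less focused. The focus ratio comes from the same reads as the score and is not a separate measurement of binding.

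**Figure D2:**
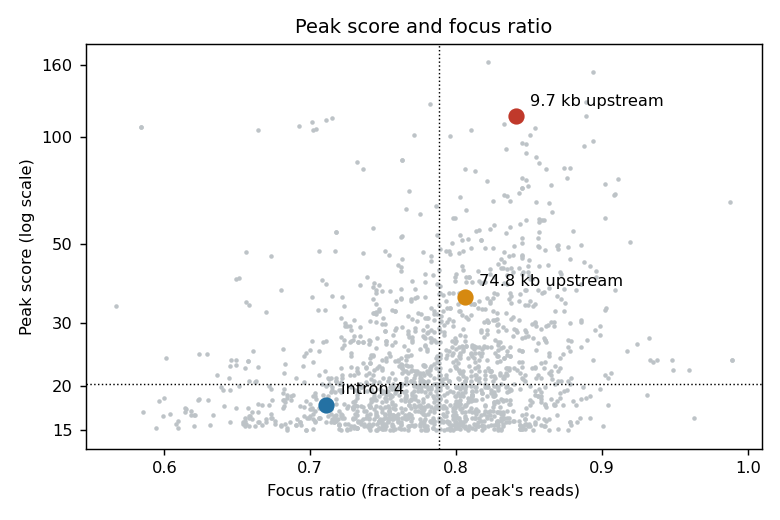
Focus ratio (fraction, x axis) against peak score (log scale, y axis) for the listed LMO2 peaks on the assembled chromosomes (grey), with the 3 peaks around Notch1 coloured and the list medians dotted. The 9.7 kb upstream peak (0.841 and 114.5) and the 74.8 kb upstream peak (0.806 and 35.5) lie above both medians, and the intron 4 peak (0.711 and 17.7) lies below both.

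None of the 1585 peaks was assigned to Notch1 by the list, which names the gene whose start is nearest. By that rule the 9.7 kb upstream peak was assigned to Gm35978, a long non-coding RNA gene on the plus strand at chr2:26503927-26505347 that starts close to the Notch1 start and runs the other way. The listed distance to that start was 9611 bp. The distance from the peak centre, 26513538, to the RefSeq Notch1 start at 26503822 was 9716 bp, and Notch1 was the nearest protein-coding start. The 74.8 kb upstream peak was assigned to Egfl7, which encodes a secreted protein of the vessel wall, at a listed distance of -2390 bp. The intron 4 peak was assigned to Mir6996, a microRNA gene further down Notch1 at chr2:26470059-26470119, at -13377 bp, although the peak lies inside Notch1. Both Notch1-proximal peaks therefore carried the name of a non-coding gene, as did 229 of the 1585 listed peaks (14.4%).

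In RefSeq, Notch1 spans 45921 bp at chr2:26457902-26503822 on the minus strand and has 1 transcript of 34 exons. The intron 4 peak lies 20326 bp downstream of the start, in an intron of 2574 bp. Its edges are 668 bp from exon 4 (chr2:26484268-26484606) and 1699 bp from exon 5 (chr2:26481571-26481693). Neither upstream peak touches a RefSeq gene.

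The strongest peak is intergenic in the list and in RefSeq but intragenic in GENCODE M21, a second annotation of the same build. GENCODE gives Notch1 11 transcripts and a span of 58761 bp, chr2:26457903-26516663, because the coding transcript Notch1-206 (chr2:26471276-26516663, 4 exons, with an open 3′ end) starts 12841 bp further upstream than the RefSeq start. Intron 1 of that transcript is 6772 bp long and holds the 9.7 kb upstream peak. The peak centre is 3125 bp downstream of that transcript's start, and the peak's edges are 2900 bp from exon 1 (chr2:26516542-26516663) and 3665 bp from exon 2 (chr2:26509612-26509769). Under this annotation 2 of the 3 peaks are inside Notch1 and 1 is outside. Such a change of class was not particular to this peak, since 535 of the 769 intergenic peaks had their centre outside every RefSeq gene, and of these 77 (14.4%) lay in some GENCODE gene and 33 (6.17%) in a GENCODE protein-coding gene. Whether Notch1-206 is transcribed in pro-B(+) cells was not measured.

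**Figure D3:**
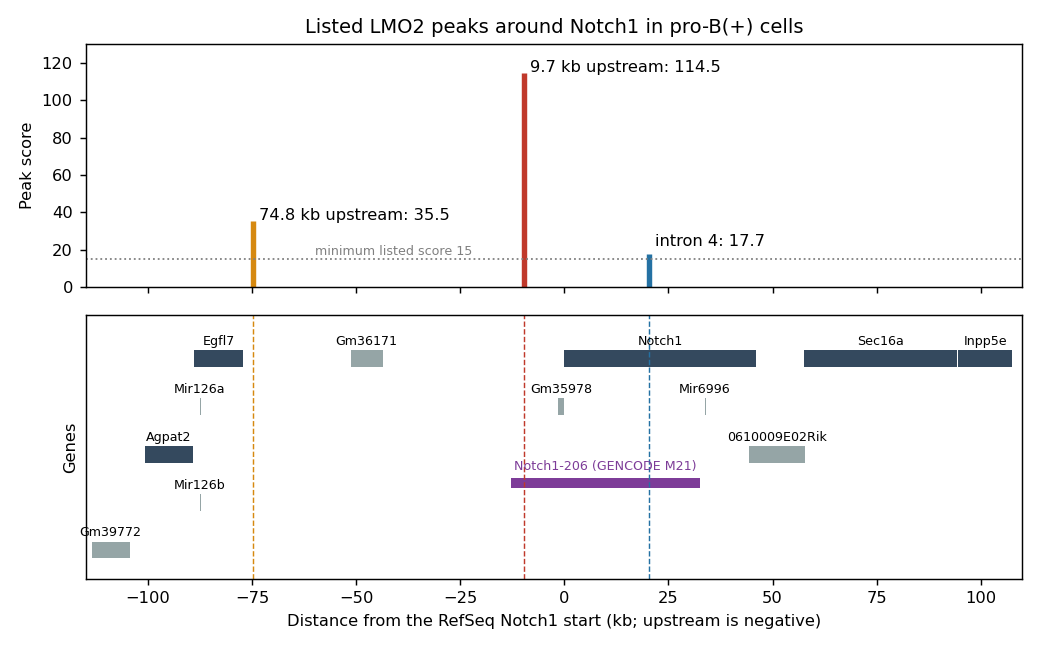
Map of the interval, with distance from the RefSeq Notch1 start in kb on the x axis (upstream negative). The upper panel gives the score of the 3 listed LMO2 peaks, 35.5, 114.5 and 17.7 from left to right, with the minimum listed score of 15 dotted. The lower panel gives RefSeq genes (dark, protein-coding; grey, non-coding) and, in purple, the GENCODE transcript Notch1-206. The 9.7 kb upstream peak falls outside the RefSeq gene and inside Notch1-206.

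The 3 peaks stood alone on a long stretch of the chromosome. From the intron 4 peak to the 9.7 kb upstream peak was 30042 bp, and from there to the 74.8 kb upstream peak 65128 bp, so the 3 covered 95170 bp from centre to centre. The next listed peak on the Sec16a side was 1249906 bp away, at chr2:25233487-25233693, with a score of 28.3. On the Egfl7 side it was 543520 bp away, at chr2:27122083-27122289, with a score of 61.8. The median distance from a listed peak to its nearest listed neighbour was 89360.5 bp. Stretches of 210 kb with at least 3 peaks were common in the list, however, and held 524 of the 1585 peaks (33.1%), while 607 peaks (38.3%) had no other peak in theirs.

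The interval holds 12 RefSeq genes, 5 of them protein-coding. These are Inpp5e, a phosphoinositide phosphatase, Sec16a, an organizer of the sites where vesicles leave the endoplasmic reticulum, Notch1, Egfl7, and Agpat2, an enzyme of phospholipid synthesis. The non-coding genes are 0610009E02Rik, Mir6996, Gm35978, Gm36171, Mir126a, Mir126b and Gm39772. Notch1 was the only one of the 12 that a listed peak overlapped in RefSeq. The 74.8 kb upstream peak was far closer to Egfl7 than to Notch1, with its centre, 26578666, 2417 bp upstream of the RefSeq Egfl7 start and 1348 bp from the GENCODE one. It was 12691 bp from Mir126a, which lies inside Egfl7 as Mir126b does. Egfl7 lies at chr2:26581083-26592682 on the plus strand. The list holds no measure of which gene a peak acts on.

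A distance of several kb from the nearest coding start was usual for these peaks. Over 1584 peaks on assembled chromosomes the median distance from the peak centre to the nearest protein-coding RefSeq start was 17625 bp, and 729 peaks (46%) were within 15 kb. A group of 171 peaks (10.8%) lay between 5 and 15 kb upstream of their nearest coding start, as the 9.7 kb upstream peak did. Their median score was 21.5, and 0 of them scored above 114.5.

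In the central 200 bp, the number of different words among RUNX, ETS and bHLH followed the order of the peak scores. The strongest peak, 9.7 kb upstream, held 1 match each of the ETS, bHLH and RUNX words. The 74.8 kb upstream peak held 3 ETS matches and 1 RUNX match on the minus strand, with no CAGCTG. The intron 4 peak held a single ETS match. Words were counted in the central 200 bp on both strands, none of the words contains another, and matches of different words could share letters at their ends. The shares over the 1584 peaks on assembled chromosomes were 54.9% for RUNX, 51.4% for ETS and 33.8% for bHLH, beside 2, 3 and 1 of the 3 peaks around Notch1. In 100 bp windows the order did not hold. There the 9.7 kb upstream peak kept only its RUNX word, whereas the 74.8 kb upstream peak kept RUNX and ETS words.

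All 3 words together occurred in 139 of the 1584 peaks (8.78%), and the 9.7 kb upstream peak had the highest score of these 139. Having the 3 words did not go with a much higher score in the list, where the median was 20.9 with them and 20.3 without. Of the 20 highest scores in the list, the 9.7 kb upstream peak was the only one with the 3 words. Of those 20, 12 lay in repeated sequence, defined as peaks with at least 50% of their 50 bp words present at several places of the genome. No 50 bp word of any of the 3 Notch1 peaks was repeated. Among the 1395 peaks outside repeated sequence the 9.7 kb upstream peak ranked 4, and the median score of those peaks was 20.0.

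In the 9.7 kb upstream peak the 3 words were packed into 37 bp, chr2:26513458-26513494, all on the plus strand and to the left of the centre:
ETS, bHLH and RUNX words of the 9.7 kb upstream peak: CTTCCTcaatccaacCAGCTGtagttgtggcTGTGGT
Here the capitals mark the 3 words in that order. The start of CTTCCT was 15 bp from that of CAGCTG, and that of CAGCTG 16 bp from that of TGTGGT. The shortest stretch holding all 3 words had a median of 81 bp over the 139 peaks (24 to 192 bp), and 15 of them (10.8%) were as short as 37 bp or shorter. Pairs of words this close were not rare. Of the 288 peaks with RUNX and bHLH words, 58 (20.1%) had them within 16 bp, and of the 279 with ETS and bHLH words, 51 (18.3%) had them within 15 bp. In the 74.8 kb upstream peak the RUNX word and the nearest ETS word were 12 bp apart from start to start, a spacing reached by 88 of 452 peaks (19.5%) with both words.

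**Figure D4:**
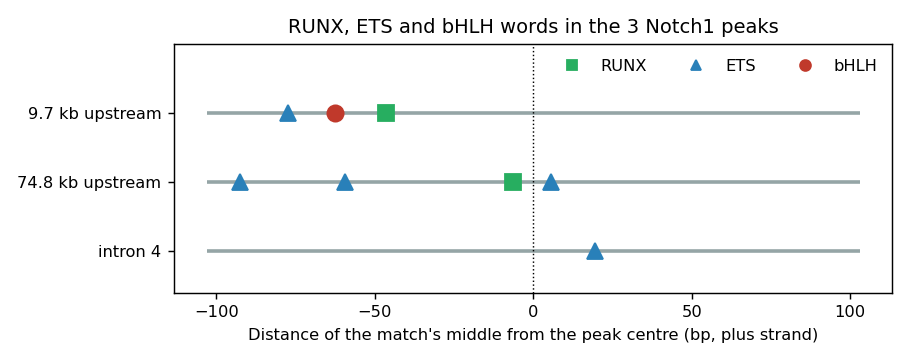
Positions of the RUNX (TGTGGT), ETS (CTTCCT) and bHLH (CAGCTG) words in the 3 peaks around Notch1, given as bp from the peak centre along the plus strand, with grey lines for the 207 bp peaks. The 9.7 kb upstream peak holds all 3 words to the left of its centre, the 74.8 kb upstream peak 3 ETS words and 1 RUNX word, and the intron 4 peak 1 ETS word.

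The words also occurred in the interval away from the listed peaks. Among 1050 adjoining windows of 200 bp across the 210 kb, 178 (17%) held the RUNX word, 265 (25.2%) the ETS word and 147 (14%) the bHLH word. All 3 occurred in 8 windows (0.762%), of which 1 overlapped a listed peak. Of the 6 windows that overlapped a listed peak, 1 (16.7%) held all 3 words. A stretch of 37 bp or less with all 3 words occurred at 2 places in the interval. The other was at chr2:26423187-26423218, in intron 19 of Sec16a, 80.6 kb downstream of the Notch1 start, and its centre was 60294 bp from that of the nearest listed peak:
RUNX, ETS and bHLH words of Sec16a intron 19: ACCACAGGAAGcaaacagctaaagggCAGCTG
It is shown for contrast, as the same words at a place with no listed peak. Its capitals mark the RUNX and ETS words, both on the minus strand and sharing 1 base, and then CAGCTG.

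The GATA word, AGATAA or TGATAA, and the RBPJ word, TGGGAA, were absent from the central 200 bp of all 3 peaks. They occurred in 255 (16.1%) and 213 (13.4%) of the 1584 peaks. With the bare letters GATA, both upstream peaks had 1 match, beside 43.8% of all peaks. The matches were at chr2:26513547-26513550 on the minus strand and chr2:26578751-26578754 on the plus strand. With any E-box, CANNTG, the 9.7 kb upstream peak gained CACATG at chr2:26513533-26513538, beside the centre, and CAGGTG at chr2:26513574-26513579. The 74.8 kb upstream peak gained CAGATG at chr2:26578715-26578720. This loose word occurred in 86.5% of all peaks. A match describes letters in the reference genome, and factor binding was not measured.

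The peaks also differed in base composition. GC content was 59.4% in the 9.7 kb upstream peak, 57.5% in the intron 4 peak and 53.1% in the 74.8 kb upstream peak, with 4, 5 and 2 CpG sites. Interspersed or simple repeats marked in the reference covered 43.5% of the 74.8 kb upstream peak and 9.66% of each of the others.

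The Notch1 promoter itself carried no listed peak. The 300 bp around the RefSeq start, chr2:26503773-26504072, had a GC content of 68.3% and 23 CpG sites, and the nearest peak centre was 9716 bp from the start. It held none of the 5 words, which occurred in 16.8% (RUNX), 35.4% (ETS), 16.3% (bHLH), 18.6% (GATA) and 25.6% (RBPJ) of 32851 RefSeq promoters of the same length. A site without a listed peak either fell under the authors' criteria or could not be called, and the list does not say which.

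Across the genome, 18.9% of the 21774 protein-coding RefSeq genes had at least 1 listed peak in the gene or within 100 kb of it, and 1.93% had 3 or more. Notch1 was among the latter 421 genes, with a summed score of 167.7. Higher sums were found at 39 genes, so that 0.188% of genes had a sum as high or higher, Notch1 included. Its neighbour Egfl7 had the same count and sum, since all 3 peaks lie within 100 kb of it too. Of the 276 genes with exactly 3 peaks, 5 had a higher sum. For scale, genes were ordered by the same count. Genes that overlapped another, each with 100 kb at either side, were taken once, by the gene with more peaks. The highest counts left were at the histone genes H1f5 (11 peaks, summed score 225.6) and H1f4 (9 peaks, 171.0). They were followed by Runx3, a RUNX factor of lymphocytes (7 peaks, 219.6), Speer1 (7 peaks, 158.7) and Cbfa2t3, a corepressor of blood progenitors (6 peaks, 281.9). Notch1 thus had fewer peaks than these and a sum between those of Speer1 and H1f4, of which 114.5 came from 1 peak. Genes close to each other share peaks in these counts.

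Of a list of 58 Notch pathway genes, 16 (27.6%) had a peak within 100 kb, beside 18.9% of all protein-coding genes. The list was drawn up with results of these data known and contains Notch1, so its share was not tested. By role, peaks were found at 1 of 6 ligands, 3 of 4 receptors, 1 of 10 genes of receptor processing, 2 of 5 of glycosylation, 1 of 8 of the nuclear complex, 1 of 4 corepressors, 5 of 9 inhibitors and turnover genes, and 2 of 12 target genes.

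Among the receptors, Notch1 had both more peaks and a higher score than its relatives. Notch2 had 1 peak 81.2 kb upstream with a score of 16.3 (rank 1269). Notch4, a receptor of the vessel wall, had 1 peak 66.1 kb downstream of its start, beyond the gene, with a score of 19.6 (rank 859). Notch3 had none. The Notch2 and Notch4 peaks were both below the list median of 20.3 and classed as intronic by the list. Unlike the peak in intron 4 of Notch1, however, both lay outside the receptor gene, and the list assigned them to Gm5544 and Prrt1, respectively. The Notch4 peak held the RUNX, ETS and bHLH words, like the 9.7 kb upstream peak of Notch1.

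Upstream of the receptor, the only ligand with a peak was Dll3, which acts inside the cell against Notch signals, with a score of 27.9 at 81.3 kb from its start. Furin, the protease that makes the first cut in the receptor, had a peak with a score of 18.1 at 95.7 kb from its start. Of the Fringe enzymes, which add sugar to the receptor and change its choice of ligand, Lfng had peaks with scores of 15.6 and 22.8 at 9.5 and 10.7 kb from its start, and Mfng had 1 with a score of 18.5 at 42.9 kb.

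In the nucleus, Maml3, a Mastermind coactivator of the Notch complex, had 3 peaks inside the gene, and its highest score, 88.3 (rank 28), was the only other score above 50 in the pathway list. The others at Maml3 were 17.2 and 17.7, at 360 and 322.9 kb from its start, and the list assigned both to Mgst2. The corepressor Kdm5a, a histone demethylase, had peaks of 31.4 and 29.1 at 102.7 and 109.6 kb from its start. Both lay outside the gene, and the list assigned them to Il17ra. Among inhibitors and turnover genes, Nrarp, a feedback inhibitor that Notch itself induces, had a peak of 28.3 at 52.8 kb, which is also the next listed peak on the Sec16a side of the Notch1 interval. Its central 200 bp held RUNX, bHLH, GATA and RBPJ words. The ubiquitin ligase Itch had a score of 19.2 at 82.8 kb from its start. The Deltex genes had scores of 15.4 and 16.1 (Dtx1, at 90.6 and 63.9 kb), 19.4 (Dtx3, at 34.4 kb) and 23.3 (Dtx4, at 66.9 kb). Among target genes, Tcf7, which encodes the T-cell factor TCF1, had a peak of 30.2 (rank 333) at 35.2 kb upstream of its start. Ptcra, the partner chain of the pre-T-cell receptor, had peaks of 19.1 and 15.9 at 12.1 and 89.3 kb from its start. Among the pathway genes with a peak, the list assigned a peak by name only to Lfng, Maml3 and Tcf7. Of the 16 pathway genes with a peak, only Notch1 and Maml3, a long gene at chr3:51687320-52105319, had one inside the gene. The same count over all protein-coding genes is not given here, so this one is a description only. With a score of 30 as the minimum, 4 genes of the list kept a peak, namely Notch1, Maml3, Kdm5a and Tcf7.

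**Figure D5:**
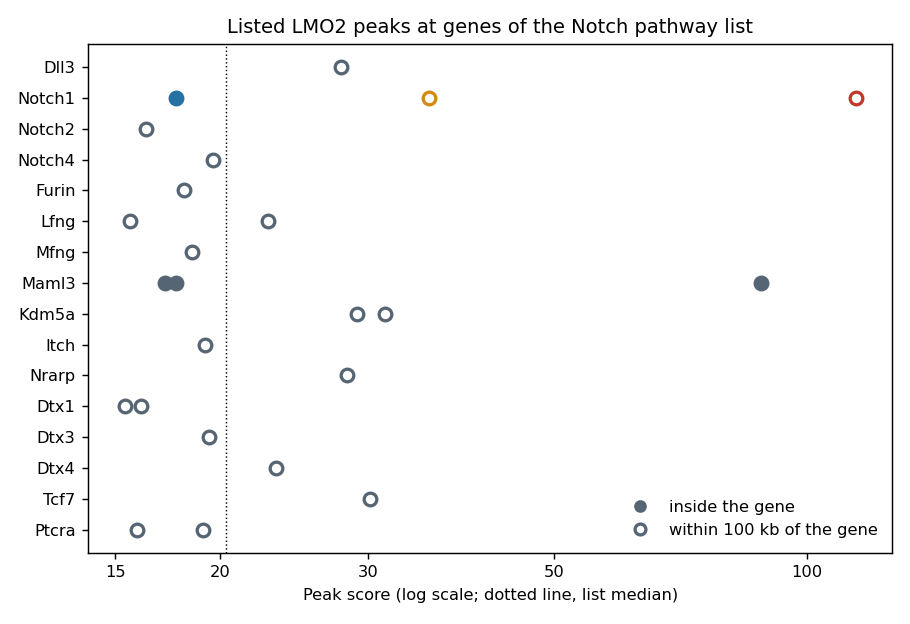
Scores (log scale, x axis) of every listed LMO2 peak in or within 100 kb of the 16 Notch pathway genes that have one, in order of role, with the list median of 20.3 dotted. Filled points lie inside the RefSeq gene, open points outside it, and the coloured points are the peaks around Notch1. The Notch1 peak at 114.5 and the Maml3 peak at 88.3 stand apart from all other points, which lie between 15.4 and 35.5.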

How the data were processed

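LMO2 ChIP-seq peaks of pro-B(+) cells were taken from 1 deposited list that covers 2 LMO2_ChIP samples called against 2 input samples. Whether the reads of the 2 LMO2_ChIP samples were merged for its scores is not stated in the sources used here. The authors aligned reads with Bowtie 1.1.1, called peaks with HOMER, kept those reproducible between the replicates and annotated them to mm10. The deposited peak score is HOMER's normalized score with a minimum of 15, and its scaling is not stated in the sources used here. The focus ratio was deposited as a fraction. The labels give reads of 50 nt, and the study's methods describe the sequencing differently. The list holds no counts, depth or value per replicate, so no interval, replicate spread or test could be computed, and p-values are not given.

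Distances were measured from peak centres to gene starts of RefSeq (GRCm38.p6) and GENCODE M21. Sequences came from the RefSeq GRCm38 genome with pysam 0.24.0, tables were made with pandas 2.3.3 under Python 3.11.15, and figures with matplotlib 3.10.9. Words were counted in 200 bp windows on both strands, and the counting was tested on simulated sequences. Named were Notch1, the genes in the interval or nearest to its peaks, pathway genes with a peak within 100 kb and, for scale, 5 genes rich in peaks. Peaks flanking the interval were named after their values were seen. The peaks, gene lists and words were chosen with earlier results of these data known. A result at 1 gene of the pathway list is not reported here, and its counts leave that gene out. Alternatives were a stricter score, other distances, windows and words, and another annotation.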

Additional observations from a re-analysis of the deposited data

How the results depend on the processing

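Of 45 values recomputed for 11 counts and medians under alternative settings, 28 stayed within 1.5 times the reported value and 17 moved further. The number of peaks around Notch1 was 2 with a minimum score of 30 or 20 and 0 when the list's own gene assignment was used. It was also 2 within 50 kb of the gene, where the 74.8 kb upstream peak is lost. Peaks inside Notch1 numbered 1 in RefSeq, 2 in the GENCODE M21 span, and 0 with a minimum score of 30 or of 20, where the intron 4 peak is lost. The median score of the Notch1 peaks became 75 under both minimums, with the 2 upstream peaks left, beside list medians of 40.55 (minimum 30) and 27.3 (minimum 20). The GENCODE span and both score minimums for peaks inside the gene, for the median and for the word counts were chosen after seeing the data. In 100 bp windows the ETS word was in 2 of the 3 peaks (33.3% of all peaks), as the 9.7 kb upstream peak lost it. The bHLH word was in 0 of the 3 peaks in 100 bp windows (21.7% of all peaks) and in 2 with the wider word (86.5%). The GATA word was in 2 with the wider word (43.8%), and the RBPJ word in 1 with the wider word (27.4%). Pathway genes with a peak fell to 10 (17.2%) within 50 kb and to 4 (6.9%) with a minimum score of 30. Over all protein-coding genes the count was 2590 (11.9%) within 50 kb, 6441 (29.6%) within 200 kb and 986 (4.53%) with a minimum score of 30. Listed peaks in a stretch with as many peaks as Notch1 numbered 347 (21.9%) for 100 kb and 812 (51.2%) for 500 kb.

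No paired analysis was possible because values per replicate are not part of the list, and neither a replicate block nor leaving out a replicate was run. The intron 4 peak, 2.7 above the authors' minimum score, was lost under both stricter minimums. The depth behind the scores is unknown, and a list of called peaks does not show weaker sites at Notch1.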
